A study of Mus musculus with 26 samples.

Results

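A set of 3 E-box repressors of the circadian clock, Ciart (ENSMUSG00000038550), Bhlhe40 (ENSMUSG00000030103) and Bhlhe41 (ENSMUSG00000030256), were followed in RNA-seq of the mouse choroid plexus (ChP) of the 4th ventricle, the epithelium that makes cerebrospinal fluid. They were chosen by symbol, make up 3 of the 55416 genes in the counts tables, and all 3 are among the 13697 genes tested, those whose level averaged 1 CPM or more (counts scaled by library size) in Ctrl and also in SCNx. Ctrl mice were sham-operated and SCNx mice had a bilateral electrolytic lesion of the suprachiasmatic nuclei (SCN), the central pacemaker. Both groups were adult C57Bl6J males of 4 to 6 months, taken from a light-dark cycle into constant darkness, and 1 mouse per group was killed every 4 h from CT0 to CT44, so that each group holds 12 mice and each time point of a group is a single mouse. Here a library is named by its group and circadian time (CT, in h from the hour at which the light failed to come on). A further 2 libraries came from 8-month-old FoxJ1-ERT2-Cre+/-; Bmal1fl/fl males on a tamoxifen diet (KO), in which Bmal1 (Arntl in the tables) is meant to be deleted in cells with motile cilia, since Foxj1 drives the Cre. The paper reports a check of recombination in liver, and deletion in the ChP of these mice was not checked here. These mice lived in a cycle of 12 h light and 12 h dark, and 1 was killed 7 h and 1 was killed 18 h after lights on (ZT7 and ZT18). The KO mice were kept and killed at another site, their brains were frozen and shipped, the ChP was cut out of sections by laser, the libraries were made with another kit, and no Cre-negative littermate was sequenced.

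The circadian clock is a feedback loop that runs within single cells, those of the ChP epithelium included. BMAL1, paired with CLOCK or NPAS2, binds the DNA element known as the E-box and switches on genes whose products then shut BMAL1 off. PER and CRY proteins are the best known of these brakes, and the 3 genes here encode further ones. Bhlhe40 (also DEC1) and Bhlhe41 (also DEC2) encode basic helix-loop-helix proteins that bind E-boxes themselves and compete with BMAL1 and CLOCK. Ciart (also CHRONO) encodes a protein that lacks such a domain, binds BMAL1 and recruits histone deacetylases. Bhlhe40 is also known to respond to hypoxia, growth factors and hormones in many tissues.

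The stretches upstream of the annotated starts of Ciart and Bhlhe41 are shown as background, for the E-box letters they hold. Whether E-boxes drove the cycles of these genes was not tested. They are the 250 bases before the RefSeq start, on the minus strand of GRCm38.p6, a build older than the GRCm39 of the counts. The RefSeq table matched 2 of the 3 members, not Bhlhe40. Capitals mark each E-box CACGTG, which reads the same on both strands. The stretch of Ciart is chr3:95882229-95882478 and that of Bhlhe41 is chr6:145865421-145865670.
Ciart: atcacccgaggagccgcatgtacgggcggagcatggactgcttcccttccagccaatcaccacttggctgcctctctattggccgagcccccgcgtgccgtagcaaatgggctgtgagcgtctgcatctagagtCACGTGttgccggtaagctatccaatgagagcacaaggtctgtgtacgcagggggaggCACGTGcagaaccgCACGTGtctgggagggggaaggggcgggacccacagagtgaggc
Bhlhe41: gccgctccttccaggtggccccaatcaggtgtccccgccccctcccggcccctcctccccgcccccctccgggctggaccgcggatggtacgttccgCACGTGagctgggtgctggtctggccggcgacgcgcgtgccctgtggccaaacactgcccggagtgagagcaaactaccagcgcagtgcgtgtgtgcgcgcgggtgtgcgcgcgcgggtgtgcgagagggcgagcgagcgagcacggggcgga
The stretch before Ciart holds 3 copies of CACGTG, which begin 116, 58 and 44 bases before the start, and that before Bhlhe41 holds 1, which begins 153 bases before it. Of the 32851 RefSeq promoter stretches of the same length, 6.02% hold at least 1 copy and 0.0609% (20 stretches) hold at least 3. Neither stretch held the related letters CACGTT (on the other strand they read AACGTG, and 3.85% of stretches hold either) or the D-box TTATGTAA (on the other strand it reads TTACATAA, and 0.819% hold either). These are matches of letters and not sites of binding, which was not measured.

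In Ctrl, Ciart ran through a steep cycle that came back on the next day, with its widest gap between days at the trough. Its levels at CT0, CT4, CT8, CT12, CT16 and CT20 were 0.474, 1.18, 6.59, 16.3, 2.08 and 0.578 CPM. One cycle later, from CT24 to CT44 and again every 4 h, they were 0.165, 0.569, 6.54, 17.6, 1.93 and 0.653 CPM. The peak of both cycles was thus the mouse at the start of subjective night, and the trough was the mouse at the start of subjective day. Peak over trough was 34.5-fold in the first cycle and 107-fold in the next, but the trough of CT24 rests on 8 counts, with an exact Poisson 95% interval of 3.45 to 15.8 counts, against 771 and 779 counts at the peaks. Intervals of counts here cover counting error only.

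Bhlhe41 cycled too, with an earlier and broader crest. From CT0 to CT20 its levels in Ctrl were 7.79, 19.8, 42.9, 34.4, 17.6 and 12.2 CPM, and from CT24 to CT44 they were 7.38, 21.1, 40.4, 40.6, 17.8 and 14.2 CPM. The 2 mice at late subjective day and the 2 at early subjective night held the 4 highest values, and the 2 mice at the start of subjective day the lowest. Peak over trough was 5.50-fold in both cycles. Bhlhe40 moved least. It stood at 27.8, 31.2, 43.0, 52.3, 34.2 and 37.7 CPM from CT0 to CT20, and at 27.7, 29.2, 44.5, 50.2, 32.5 and 34.7 CPM from CT24 to CT44. Its highest and lowest mice fell at the same clock times as those of Ciart, with 1.88-fold and 1.81-fold between them.

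**Figure D1:**
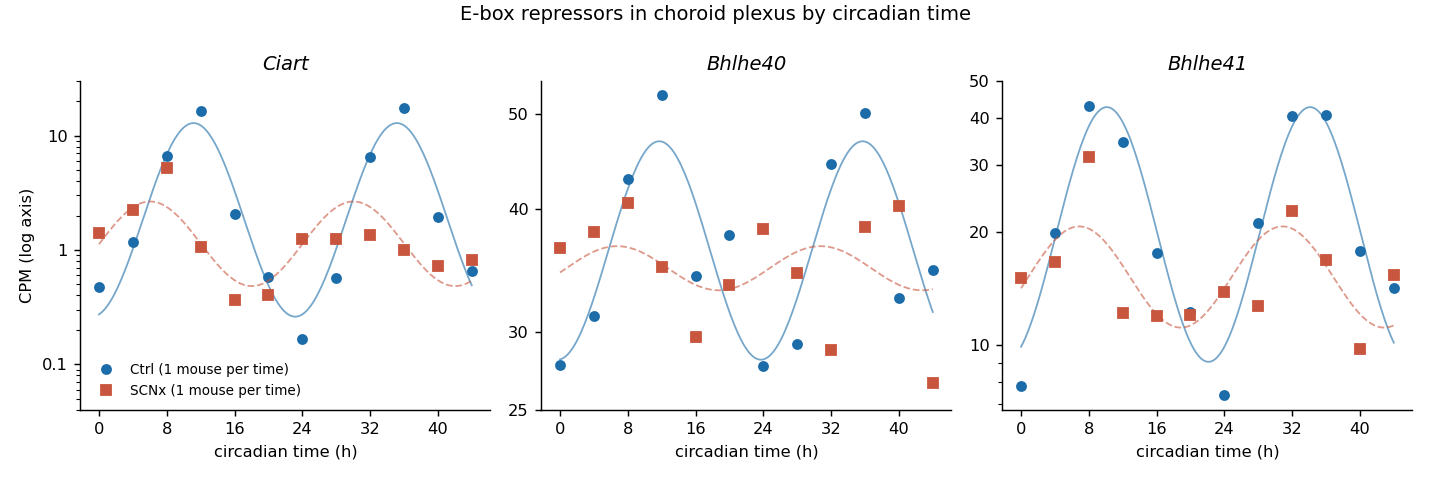
Level of each gene in CPM on a log axis against circadian time in hours, with 1 point per mouse (Ctrl circles, SCNx squares) and the fitted 24 h curve of each group (Ctrl solid, SCNx dashed). The Ctrl points repeat over both cycles, from 0.165 to 17.6 CPM for Ciart, 27.7 to 52.3 for Bhlhe40 and 7.38 to 42.9 for Bhlhe41, while the SCNx points scatter within a narrower range; the curve in SCNx passed the edgeR test for none of them.

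All 3 members passed the test for a 24 h rhythm in Ctrl, where the quasi-likelihood test of edgeR, a count model fitted to all tested genes, called 10.7% of the tested genes (1459 genes). Amplitude here is the height of the 24 h curve of edgeR over its mean on the log2 scale. The standard error (SE) is from the spread of the mice around a separate least-squares curve fitted to log2 CPM. The 2 fits can differ: for Ciart in SCNx the amplitude was 1.23 by edgeR and 1.11 by least squares. Ciart had an amplitude of 2.81 ± 0.25 and peaked at 11.2 ± 0.35 h (edgeR adjusted p = 2.14e-06), Bhlhe41 had 1.12 ± 0.12 and peaked at 10.1 ± 0.40 h (adjusted p = 3.94e-05), and Bhlhe40 had 0.37 ± 0.077 and peaked at 11.7 ± 0.80 h (adjusted p = 0.00871). Peak over trough of these curves was 49.3-fold, 4.71-fold and 1.67-fold, so that the fitted depths lay far apart. The fitted peaks lay between 10.1 and 11.7 h, and whether the peak times differed was not tested alone. The least-squares 24 h curve took up 93.1% of the variance of Ciart between the 12 mice, 91.1% of that of Bhlhe41 and 71.6% of that of Bhlhe40. By amplitude in Ctrl, Ciart lay above 99.4% of the tested genes, Bhlhe41 above 98.2% and Bhlhe40 above 90.0%. The calls of all 3 held under every alternative and with any 1 of the 24 libraries left out.

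The 3 cycles differed from one another in amplitude or phase on the log2 scale, which the test used does not tell apart. The log2 ratio of 2 members within each Ctrl library was tested for a 24 h rhythm by permuting the 12 times, with adjustment over the 3 pairs. The ratio of Ciart to Bhlhe40 ran from -7.21 at CT24 to -1.51 at CT36 (amplitude 2.41, permutation p = 3e-05, adjusted p = 9e-05). The ratio of Ciart to Bhlhe41 ran from -5.30 at CT24 to -1.07 at CT12 (amplitude 1.70, permutation p = 0.0003, adjusted p = 0.0003). The ratio of Bhlhe41 to Bhlhe40 ran from -1.90 at CT24 to -0.0039 at CT8 (amplitude 0.82, permutation p = 0.00029, adjusted p = 0.0003). Each ratio was lowest at the start of subjective day, when the steeper gene of the pair had fallen further. Per kb of exon (GENCODE M21, a release other than that of the counts), the mean level in Ctrl was 7.88 CPM per kb for Bhlhe40, 3.42 for Bhlhe41 and 2.02 for Ciart. In SCNx it was 7.44, 2.36 and 0.629 CPM per kb in the same order.

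After the SCN lesion no mouse reached the Ctrl peak of Ciart, and its values lay closer together. From CT0 to CT20 the SCNx mice had 1.42, 2.22, 5.22, 1.07, 0.367 and 0.400 CPM of Ciart, and from CT24 to CT44 they had 1.24, 1.25, 1.36, 0.994, 0.718 and 0.809 CPM. The highest was SCNx CT8, and the 4 Ctrl mice at CT8, CT12, CT32 and CT36 all lay above it. The lowest SCNx value, 0.367 CPM, lay above the 0.165 CPM of the Ctrl trough at CT24. The SCNx mice thus fell inside the range of Ctrl at both ends.

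Bhlhe41 in SCNx was 15.1, 16.7, 31.4, 12.2, 12.0 and 12.0 CPM from CT0 to CT20, and 13.8, 12.7, 22.7, 16.8, 9.76 and 15.3 CPM from CT24 to CT44. SCNx CT8 was again the highest, followed by SCNx CT32, and both lay below the 4 highest Ctrl mice. Bhlhe40 in SCNx was 36.6, 37.9, 40.6, 34.9, 29.6 and 33.5 CPM from CT0 to CT20, and 38.2, 34.5, 28.8, 38.4, 40.4 and 26.6 CPM from CT24 to CT44. Its highest and lowest SCNx mice, SCNx CT8 and SCNx CT44, differed less than the peak and trough of Ctrl, and the groups overlapped. SCNx CT8 was thus the highest SCNx library for all 3 members. The clock genes Dbp, at 88.4 CPM, and Arntl, at 3.27 CPM, also lay near the 105 and 2.95 CPM of Ctrl CT8 there, while Nr1d1 did not, at 36.8 CPM against 92.7 CPM.

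No member passed the edgeR test for a 24 h rhythm in SCNx, where edgeR called 0% of the tested genes (0 adjusted, 2032 at an unadjusted p under 0.05, and 432 by DESeq2). Ciart came nearest, with an amplitude of 1.23 ± 0.26 at 6.04 ± 0.91 h (unadjusted p = 0.000376, edgeR adjusted p = 0.137). DESeq2 called it (adjusted p = 0.0112), while limma-trend did not (adjusted p = 0.377). A permutation of the 12 times of Ciart gave a permutation p of 0.00185. Like the unadjusted p of edgeR, it was not adjusted over all genes and is no call beside the others. Without SCNx CT8 its amplitude was 0.87 (edgeR adjusted p = 0.104). Bhlhe41 had an amplitude of 0.44 ± 0.15 at 6.86 ± 1.4 h (edgeR adjusted p = 0.187), and Bhlhe40 had 0.075 ± 0.086 (edgeR adjusted p = 0.809). The amplitudes in SCNx were 43.7%, 39.7% and 20.2% of those in Ctrl for Ciart, Bhlhe41 and Bhlhe40.

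The difference of the rhythm between SCNx and Ctrl, tested in the same edgeR fit, was called for 2.12% of the tested genes (291 genes). This test takes amplitude and phase together and does not tell them apart. Of the members, Ciart (adjusted p = 0.000498) and Bhlhe41 (adjusted p = 0.0326) were called, and Bhlhe40 was not (edgeR adjusted p = 0.184). The call of Ciart held under every alternative and without any 1 library. That of Bhlhe41 did not hold without the pair Ctrl CT16 and SCNx CT0 (edgeR adjusted p = 0.0672), where the difference of the waves was 0.895 log2 units against 0.893 with all libraries, nor in 12 of the 24 fits without 1 library, with adjusted p up to 0.0816. These 12 libraries were Ctrl CT0, CT8, CT12, CT24 and CT36 and SCNx CT0, CT12, CT16, CT20, CT24, CT36 and CT44.

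**Figure D2:**
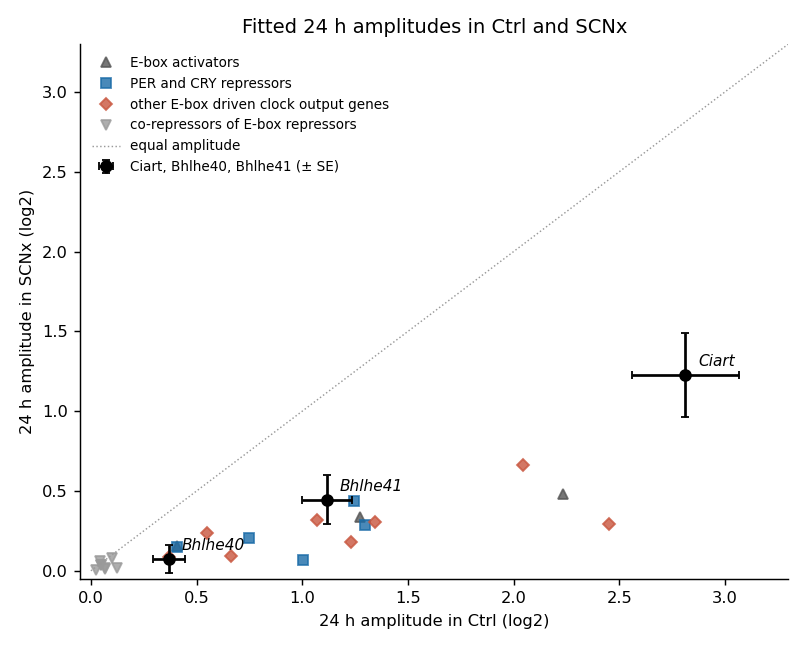
Fitted 24 h amplitude (log2) in SCNx on the vertical axis against Ctrl on the horizontal axis for Ciart, Bhlhe40 and Bhlhe41 (black, ± SE) and for the tested genes of 4 lists, with 1 point per gene and a dotted line of equal amplitude. All 3 members lie below the line, and Ciart, at 2.81 and 1.23, lies furthest from the origin.

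The other genes of the clock loop were read list by list. Of the 3 activators (Arntl, Clock, Npas2) 3 were rhythmic in Ctrl, as were 5 of 5 PER and CRY genes and 8 of 8 other E-box driven genes, beside 10.7% of all tested genes. In SCNx edgeR called 0 of these, as it did of all tested genes. The difference of the rhythm was called for 2 of 3, 4 of 5 and 7 of 8, beside 2.12% of all tested genes, and not for Clock, Cry2 and Usp2. Arntl peaked at 22.9 h in Ctrl, opposite to the members, Dbp at 10.2 h and Per2 at 14.8 h, so that the members crested with Dbp and ahead of Per2. Of the 8 co-repressors through which such proteins silence genes (among them Hdac1, Hdac2, Hdac3, Sirt1 and Sin3a), 0 were called rhythmic by edgeR in either group, with a median amplitude of 0.056 in Ctrl beside 0.11 over all tested genes. Of the relatives of the HES and HEY family, bHLH repressors outside the clock, 5 of 10 were tested and 1 was rhythmic in Ctrl, Hey1 (amplitude 0.21, edgeR adjusted p = 0.046). Of the 16 other E-box binding factors listed, such as Usf1, Max and Mitf, 13 were tested and 0 were called by edgeR in either group.

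Clock time by clock time, with both cycles laid over one another and 2 mice per group and time, the gap between the groups was widest at clock time 12. There edgeR called 0.299% of the tested genes (41 genes), and 2 of the 3 members were among them. This count moved to between 4 (without Ctrl CT12 or Ctrl CT36) and 110 (without SCNx CT32) with 1 library left out, and to 8, 15 and 108 without SCNx CT36, SCNx CT12 and SCNx CT8. The mean of Ciart was 16.96 CPM for Ctrl against 1.03 CPM for SCNx, a log2 fold change of -4.04 ± 0.61 (16.4-fold lower in SCNx, edgeR adjusted p = 0.0096). Bhlhe41 averaged 37.5 and 14.5 CPM, a log2 fold change of -1.37 ± 0.19 (2.58-fold lower, edgeR adjusted p = 0.00563). Bhlhe40 averaged 51.2 and 36.7 CPM and did not pass the test (log2 fold change -0.48 ± 0.15, edgeR adjusted p = 0.325). With 1 of the 4 mice left out, so that the lone mouse is assumed to vary like the other groups, the call of Ciart was lost for each of Ctrl CT12, Ctrl CT36, SCNx CT12 and SCNx CT36 (edgeR adjusted p from 0.0503 to 0.161) and that of Bhlhe41 for Ctrl CT36 and SCNx CT12 (0.0503 and 0.0859), with log2 fold changes between -4.08 and -3.98 and between -1.62 and -1.15 respectively.

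At the other clock times no member passed the edgeR test. At clock time 0, the trough of Ctrl, the SCNx values lay on the other side. Ciart averaged 0.320 CPM in Ctrl and 1.33 in SCNx (log2 fold change 2.07 ± 0.61, edgeR adjusted p = 0.159), Bhlhe41 7.58 and 14.4 CPM (0.93 ± 0.19, edgeR adjusted p = 0.0985) and Bhlhe40 27.7 and 37.4 CPM (0.44 ± 0.15, edgeR adjusted p = 0.243), and for each member both SCNx mice lay above both Ctrl mice. The shares of tested genes called by edgeR at clock times 0, 4, 8, 16 and 20 were 0.0511%, 0%, 0.0146%, 0.0073% and 0.0292%. At clock time 4, edgeR called 0 genes adjusted and 1170 at an unadjusted p under 0.05, and limma-trend called 1. Clock time 8 turned on SCNx CT8. With it, the log2 fold changes of Ciart, Bhlhe40 and Bhlhe41 were -0.99 ± 0.55, -0.33 ± 0.15 and -0.62 ± 0.18 (edgeR adjusted p = 0.393, 0.301 and 0.167). Without it they were -2.24, -0.57 and -0.84 (edgeR adjusted p = 0.0115, 0.0154 and 0.00998), but then the lone mouse SCNx CT32, rich in neuron and astrocyte transcripts, stood for the group and 3704 genes were called.

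**Figure D3:**
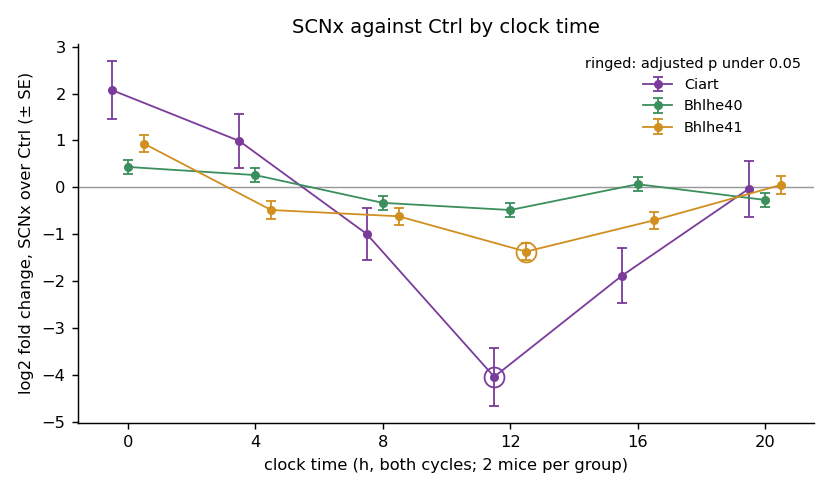
Log2 fold change of SCNx over Ctrl (± SE of the edgeR fit) against clock time in hours, with 2 mice per group at each time and 1 line per gene; rings mark adjusted p under 0.05. The lines start above 0 at clock time 0 and reach their lowest point at clock time 12, at -4.04 for Ciart, -1.37 for Bhlhe41 and -0.48 for Bhlhe40.

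Pooled over all times, the levels did not pass the test for any member. Over 12 mice a group, the mean of Ciart was 4.56 ± 6.21 CPM (SD, n = 12) for Ctrl against 1.42 ± 1.296 CPM for SCNx, and Bhlhe41 had 23.01 ± 13.1 and 15.9 ± 5.92 CPM, and Bhlhe40 37.1 ± 8.53 and 35.0 ± 4.61 CPM. The log2 fold changes of SCNx over Ctrl were -1.67 ± 0.65 for Ciart (edgeR adjusted p = 0.458), -0.53 ± 0.27 for Bhlhe41 (edgeR adjusted p = 0.561) and -0.081 ± 0.10 for Bhlhe40 (edgeR adjusted p = 0.841). edgeR called 0% of the tested genes here (0 adjusted, 1283 at an unadjusted p under 0.05, 7 by DESeq2 and 0 by limma-trend). As differences of mean log2 CPM, which weigh peak and trough alike, they were smaller, at -0.69, -0.37 and -0.06. In bulk tissue, fewer cells of a type and less RNA per cell cannot be told apart. Between the 2 days in darkness no member passed the test in Ctrl (log2 change of day 2 over day 1 -0.31 ± 0.36 for Ciart, -0.052 ± 0.11 for Bhlhe40 and 0.074 ± 0.19 for Bhlhe41) or in SCNx (-0.28 ± 0.38, -0.04 ± 0.11 and -0.08 ± 0.19) by edgeR, which called 0% of the tested genes in either group (0 adjusted, 586 and 2552 at an unadjusted p under 0.05, and 0 by limma-trend).

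By the median over the 6 clock times, the 2 mice of a clock time lay closer in Ctrl than in SCNx for each member. The median gap between the 2 mice of a clock time was 0.14 log2 units for Ciart in Ctrl and 0.87 in SCNx. For Bhlhe41 it was 0.087 and 0.37, and for Bhlhe40 0.067 and 0.24. Ciart went the other way at clock times 0 and 4. Its widest gap in Ctrl was 1.41 log2 units at clock time 0, where its counts were 19 and 8, and its widest in SCNx was 1.92 at clock time 8. No test was run on these gaps. Over all 12 mice, whatever their time, the SD of log2 CPM in SCNx was 1.01 for Ciart, 0.46 for Bhlhe41 and 0.20 for Bhlhe40, beside a median of 0.16 over all tested genes.

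Whether the members moved together from mouse to mouse in SCNx was asked with 12 relations per group, the 3 pairs of members and each member against Arntl, Nr1d1 (REV-ERBalpha, a repressor of Arntl) and Dbp, on log2 CPM with permutation p-values adjusted over the 12. All values of a mouse share its library and its sampling time. In SCNx a 24 h curve fitted to log2 CPM took up 66.3% of the variance of Ciart, 44.9% of Bhlhe41 and 8.29% of Bhlhe40. It took up 37.2% for Arntl, 18.9% for Nr1d1 and 36.4% for Dbp, and edgeR called none of these rhythms. The part of sampling time in r was not tested. Ciart was low where Arntl was high (Pearson r = -0.896, permutation p = 0.00011, adjusted p = 0.00108; Spearman rho = -0.818, permutation p = 0.00187, adjusted p = 0.0186). It followed Dbp (r = 0.889, permutation p = 0.00018, adjusted p = 0.00108; rho = 0.769, permutation p = 0.00465, adjusted p = 0.0186). Both relations kept their sign and size without the 2 mice farthest from the median, SCNx CT8 and SCNx CT16 (r = -0.780 and 0.777), and their calls without any 1 mouse.

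Ciart and Bhlhe41 also rose and fell together across the SCNx mice (r = 0.778, permutation p = 0.00384, adjusted p = 0.0114; rho = 0.727, permutation p = 0.00965, adjusted p = 0.0289), but this rested on SCNx CT8. Without SCNx CT8 and SCNx CT16, r was 0.524, and without SCNx CT8 alone it was 0.553 (adjusted permutation p = 0.271). Bhlhe41 was related to Arntl (r = -0.794, permutation p = 0.00475, adjusted p = 0.0114; rho = -0.776, permutation p = 0.00429, adjusted p = 0.0186) and to Dbp (r = 0.791, permutation p = 0.00474, adjusted p = 0.0114; rho = 0.699, permutation p = 0.0145, adjusted p = 0.0349). Without SCNx CT8 and SCNx CT32 these were -0.813 and 0.857, and without SCNx CT8 alone -0.513 and 0.502, neither of which passed (adjusted permutation p = 0.271). SCNx CT32 was the library of its group with the most neuron and astrocyte transcripts and the next highest Bhlhe41, and the part of those cells in its value was not tested.

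Bhlhe40 did not pass in any of its relations in SCNx over the 12 mice. Its r in SCNx was 0.473 with Ciart (permutation p = 0.121, adjusted p = 0.182; rho = 0.350, permutation p = 0.265, adjusted p = 0.354; r without SCNx CT8 and SCNx CT16 = 0.168) and 0.0536 with Bhlhe41 (permutation p = 0.874, adjusted p = 0.874; rho = 0.140, permutation p = 0.666, adjusted p = 0.666; r without SCNx CT8 and SCNx CT32 = -0.048). Its r was -0.513 with Arntl (adjusted permutation p = 0.147) and 0.448 with Dbp (adjusted permutation p = 0.192), but without SCNx CT40 both passed, at -0.700 and 0.648 (adjusted permutation p = 0.0324 and 0.0443). No test compared r between the members. In all, 5 of the 12 relations passed in SCNx and 10 of 12 in Ctrl, by Pearson and by Spearman alike. The Ctrl mice share a time course that edgeR called for each member, and r there holds it. In SCNx the part of time in r was not tested. For Ciart with Bhlhe41 in Ctrl, r was 0.904 (permutation p = 0.00014, adjusted p = 0.00028). Its rho was 0.832 (permutation p = 0.00146, adjusted p = 0.00292), and r was 0.904 without Ctrl CT12 and Ctrl CT36. For Ciart with Bhlhe40 in Ctrl, r was 0.911 (permutation p = 7e-05, adjusted p = 0.000168). Its rho was 0.874 (permutation p = 0.00038, adjusted p = 0.000912), and r was 0.820 without the same mice. Whether r differed between the groups was not tested.

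**Figure D4:**
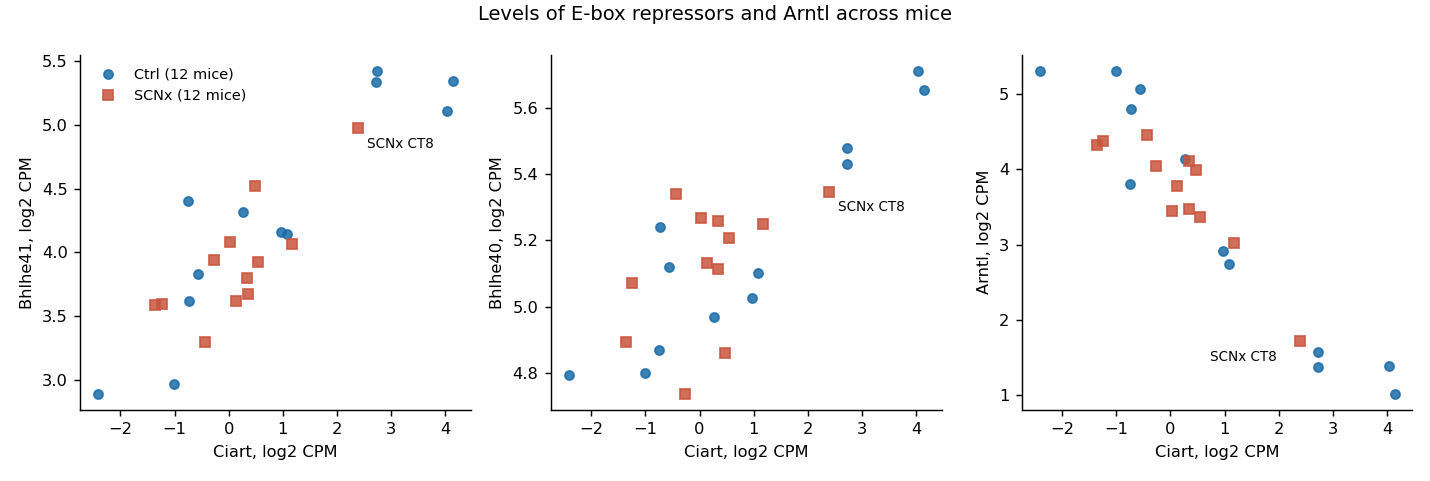
Log2 CPM of Bhlhe41, Bhlhe40 and Arntl (vertical axes) against that of Ciart (horizontal axes), with 1 point per mouse (12 Ctrl circles, 12 SCNx squares). Bhlhe41 climbs and Arntl falls with Ciart in both groups, with r of 0.778 and -0.896 in SCNx, while Bhlhe40 does so in Ctrl (0.911) and scatters in SCNx (0.473); SCNx CT8 is named.

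In the 2 KO mice, Ciart was nearly the same by day and by night. It was 3.39 CPM at ZT7 (59 counts, exact binomial 95% interval 2.58 to 4.37) and 3.16 CPM at ZT18 (57 counts, 2.39 to 4.09), so that night over day was 0.932 (0.636 to 1.36). Bhlhe41 was 26.8 CPM at ZT7 (24.4 to 29.3) and 35.7 CPM at ZT18 (33.0 to 38.6), and Bhlhe40 was 43.2 CPM (40.2 to 46.4) and 58.9 CPM (55.4 to 62.5). Both of these were higher in the night mouse, with night over day of 1.33 (1.18 to 1.504) and 1.36 (1.24 to 1.497). Between the 2 KO mice 3.83% of the tested genes differed over 2-fold, and 0 of the 3 members did. With 1 mouse per time there is no test, and the intervals cover counting error only.

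Set beside them, Ctrl fell from day (CT8 and CT32) to night (CT16, CT20, CT40 and CT44) by 2.53 log2 units for Ciart, by 1.44 for Bhlhe41 and by 0.33 for Bhlhe40. SCNx fell by 2.26, by 1.14 and by 0.094, and with SCNx CT32 alone as the day its change was -1.30, -0.92 and 0.15. In KO the mouse at ZT18 minus the mouse at ZT7 gave -0.10, 0.41 and 0.45, and -0.21, 0.30 and 0.33 when scaled by the median ratio over tested genes. The KO hours are not those of Ctrl and SCNx, and the KO mice were not in constant darkness. Read instead at 7 and 18 h from curves fitted to log2 CPM, Ciart changed by -1.89 in Ctrl and -2.17 in SCNx. By that reading Bhlhe41 changed by -1.32 and -0.82, and Bhlhe40 by -0.17 and -0.15, in the same order. Which group fell further for Ciart thus depended on the reading. In the KO libraries both Ciart values lay within the Ctrl range of 0.165 to 17.6 CPM and above 11 of the 12 SCNx mice, both Bhlhe41 values lay inside the Ctrl range, and the ZT18 value of Bhlhe40 lay above all 24 Ctrl and SCNx mice. Dbp, Nr1d1 and Per2 were also higher in the KO mouse at ZT18 than at ZT7 (77.5 and 60.7, 52.6 and 30.1, and 49.2 and 35.0 CPM). Arntl counts, 184 at ZT7 and 169 at ZT18, can come from a transcript that lacks the deleted exon, and so check nothing here. Kit, dissection, light, age and genotype changed together between KO and the other groups and cannot be told apart, and KO libraries held more mitochondrial counts (25.1% at ZT7 and 21.8% at ZT18, beside 3.92% to 8.77% in Ctrl and SCNx) and more astrocyte transcripts (summed level of the 5 markers listed 784 and 929 CPM, beside medians of 55.5 in Ctrl and 51.0 in SCNx), whose part in the values of the members was not tested.

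**Figure D5:**
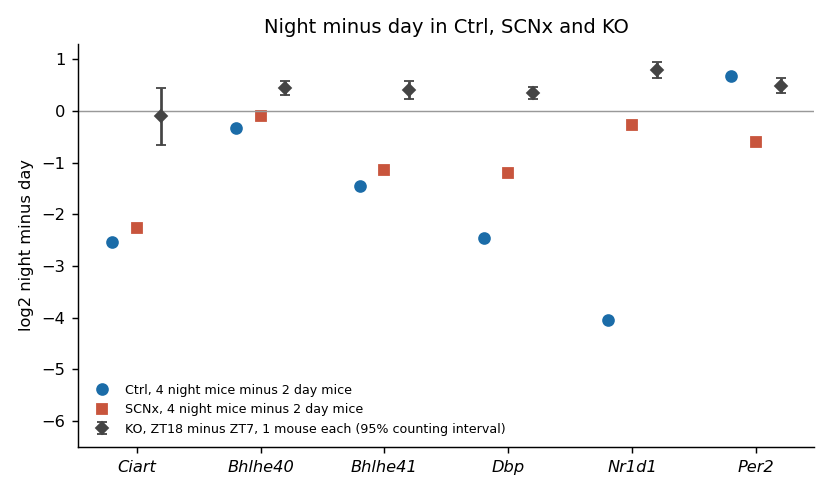
Log2 night minus day for the members, Dbp, Nr1d1 and Per2 in Ctrl (circles) and SCNx (squares), each 4 night mice minus 2 day mice, and in KO (diamonds, ZT18 minus ZT7, 1 mouse each, bars are 95% counting intervals). Ciart lies at -2.53 in Ctrl, -2.26 in SCNx and -0.10 in KO, and the KO diamonds of Bhlhe40 and Bhlhe41 lie above 0.

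Depth did not limit Bhlhe40 and Bhlhe41, whose smallest counts were 753 and 312. It limited Ciart at its Ctrl trough (8 counts at CT24) and also in the other groups. Counts of Ciart ran from 16 in SCNx CT16 to 262 in SCNx CT8, and were 59 and 57 in KO. Totals were 38751162 to 47335226 counts in Ctrl, 41807000 to 49527614 in SCNx, and 17425176 and 18059213 in KO. The summed level of 10 ChP epithelium markers such as Ttr was 143060 to 166552 CPM in Ctrl, 105750 to 167052 in SCNx and 82452 to 87018 in KO, so that the labelled tissue was plain in each. A few libraries stood apart by other tissues. Neuron markers summed to 332 CPM in Ctrl CT4 and 353 in SCNx CT32, beside medians of 17.8 and 16.98, and were 239 and 355 in KO, while hepatocyte markers reached 2349 CPM in Ctrl CT16 and 12275 in SCNx CT0, beside medians of 3.94 and 6.02. Of the 11 hepatocyte markers tested, edgeR called 9 rhythmic in Ctrl and 7 for the difference of the rhythm. The shares of 10.7% and 2.12% over all tested genes hold these calls. Blood markers summed to 6642 CPM in SCNx CT44, the lowest library for Bhlhe40, beside an SCNx median of 538.5, and their part in its value was not tested. Without Ctrl CT4 and SCNx CT32 no call of a member changed for the rhythm, its difference or the level. Without Ctrl CT16 and SCNx CT0, the pair with high hepatocyte markers, the call of Bhlhe41 for the difference was lost (edgeR adjusted p = 0.0672).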

How the data were processed

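RNA of 4th-ventricle ChP was sequenced by the authors as single-end reads, mapped to GRCm39 (Ensembl 104) in nf-core/rnaseq, and deposited as estimated counts per gene from Salmon (1.9.0 in the submitters' processing notes, beside STAR, SAMtools 1.16.1, cutadapt 3.4 and StringTie 2.2.1), without normalization. Use of strand in counting is not given in the sources used here. The estimated counts were rounded, scaled with TMM in edgeR 4.0.16 (R 4.3.3; KO by its totals), and tests ran on the 13697 of 55416 genes whose CPM averaged 1 or more in both time courses, which held at least 99.05% of each library's counts. No 2 libraries were identical.

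One edgeR model gave each group its mean and a 24 h wave (cosine with sine). Further models gave the level, each clock time and the day. Each p across genes came from the quasi-likelihood test, adjusted by Benjamini-Hochberg over all 13697 genes and called at 0.05. Log2 CPM used a prior count of 1. Permutation tests were two-sided for correlations and drew 100000 permutations in Python 3.11.15 with numpy 2.4.6 and scipy 1.17.1. Code was tested on simulated data. Alternatives were DESeq2 1.42.0, its size factors, limma-trend (limma 3.58.1), other minimum levels, other models, libraries left out and, chosen after seeing the data, a trended dispersion alone. Members and lists were chosen with earlier results of these data known. Named genes were the members, the listed genes, and per member the 5 genes most correlated with it in each group. Mice of a group differ in time, and at a clock time the spread is that of 2 mice.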

Additional observations from a re-analysis of the deposited data

Results flagged for a closer look

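The 24 h rhythm of 2 members differed between SCNx and Ctrl by the test of the difference itself. That test takes amplitude and phase together and does not tell them apart. For Ciart the amplitude was 2.81 in Ctrl and 1.23 in SCNx, with peaks at 11.2 and 6.04 h (edgeR adjusted p of the difference = 0.000498). For Bhlhe41 the amplitude was 1.12 and 0.44, with peaks at 10.1 and 6.86 h (edgeR adjusted p = 0.0326). This second call was lost in 12 of 24 fits without 1 library. The peaks in SCNx are those of curves that edgeR did not call. No test of single outlying samples was run on these groups of 12 mice, and some calls turned on 1 library.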

How the results depend on the processing

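In Ctrl the rhythm calls of all 3 members held in 72 of 72 fits without 1 library and in 38 of 38 under other settings, though Ciart has no value at a minimum mean of 5 CPM. No level of a member was called in 72 of 72 and 26 of 26. In SCNx the rhythm of Ciart passed under DESeq2 (amplitude 1.23) and with no minimum CPM (1.23), and under no other setting adjusted over all genes. By permutation (1.11) its p was under 0.05, but without adjustment over all genes. The difference of the rhythm of Bhlhe41 did not pass without Ctrl CT16 and SCNx CT0 (0.89, the length of the difference of the 2 waves in log2 units), and ranged from 0.80 to 0.98 without 1 library. With no minimum CPM, where the full dispersion model could not be fitted and a trended one was used, these SCNx over Ctrl log2 fold changes also passed: at clock time 0, Ciart 2.05, Bhlhe40 0.41 and Bhlhe41 0.91; at clock time 8, Bhlhe40 -0.36 and Bhlhe41 -0.64; at clock time 12, Bhlhe40 -0.48; at clock time 16, Ciart -1.90 and Bhlhe41 -0.72. That setting called 367 to 2156 genes per clock time, and a trended dispersion alone, chosen after seeing the data, changed no call of a member. The cause was not tested.

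The number of rhythmic genes in Ctrl was 838 with no minimum CPM, 2223 without Ctrl CT4 and SCNx CT32, 583 with 6 free clock times in place of the wave, and 918 (without Ctrl CT44) to 2249 (without SCNx CT32) with 1 library left out. In SCNx it was 432 under DESeq2, 364 with no minimum CPM, and 0 to 6 (without SCNx CT24). For the difference it was 589 under DESeq2, 504 without Ctrl CT4 and SCNx CT32, and from 163 when SCNx CT16 was left out to 466 when SCNx CT32 was, and 175 to 192 for each of Ctrl CT12, CT20, CT24, CT44 and SCNx CT12. With 1 library left out, the genes called ranged from 0 (without Ctrl CT24) to 610 (without SCNx CT24) at clock time 0, 0 to 107 (without Ctrl CT28) at clock time 4, 0 (without Ctrl CT16 or CT40) to 18 (without SCNx CT32) at clock time 16, and 1 (without Ctrl CT20 or CT44) to 26 (without SCNx CT8 or CT32) at clock time 20. For the level the number was 7 under DESeq2 and 0 to 3 (without SCNx CT32).

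Without 1 library, log2 fold changes ranged from 0.87 to 0.999 for Bhlhe41 at clock time 0 (passing without SCNx CT8, CT24 or CT32). At clock time 8 they ranged from -2.24 to -0.34 for Ciart, from -0.57 to -0.12 for Bhlhe40 and from -0.84 to -0.42 for Bhlhe41 (each passing without SCNx CT8). At clock time 12 they ranged from -4.08 to -3.98 for Ciart and from -1.62 to -1.15 for Bhlhe41. Signs turned, with no call, at clock time 16 for Bhlhe40 (-0.17 to 0.27), at clock time 20 for Ciart (-0.62 to 0.39) and Bhlhe41 (-0.13 to 0.22), between days in Ctrl for Bhlhe40 (-0.11 to 0.0094) and Bhlhe41 (-0.056 to 0.16), and between days in SCNx for Ciart (-0.48 to 0.046), Bhlhe40 (-0.12 to 0.027) and Bhlhe41 (-0.21 to 0.11). Across SCNx mice r ranged from 0.55 to 0.81 for Ciart with Bhlhe41, from -0.32 to 0.27 for Bhlhe41 with Bhlhe40 (turning without SCNx CT8 and, at -0.033, without SCNx CT16) and from -0.30 to 0.56 for Bhlhe41 with Nr1d1 (turning without SCNx CT8). The labels give the mice no replicate number. Circadian time as a block, which pairs 1 Ctrl with 1 SCNx mouse, changed no call of the level, with log2 fold changes of -0.71 for Ciart, -0.061 for Bhlhe40 and -0.39 for Bhlhe41.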

Other observations

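The tested genes whose log2 CPM followed Ciart most closely over the 12 Ctrl libraries were Ccdc85b (r = 0.960), Nos1 (0.948), Gm17092 (0.944), Tspan4 (0.937) and Tef (0.934). For Bhlhe40 they were Ciart (0.911), Coq10b (0.902), Tub (0.886), Sh2b3 (0.884) and Ptp4a1 (ENSMUSG00000117310, 0.880). For Bhlhe41 they were Dbp (0.962), Bambi (0.935), Gm17092 (0.931), Cdc42ep4 (0.929) and Rgcc (0.929). Over the 12 SCNx libraries, the nearest genes of Ciart were mostly of the clock, namely Tef (0.918), Dbp (0.889), Per3 (0.883), Hlf (0.883) and Sh2b3 (0.879). Those of Bhlhe41 were Lrrc61 (0.920), Mthfd1l (0.904), Tef (0.901), Cry2 (0.893) and Lrrc8d (0.878), and those of Bhlhe40 were Loxl3 (0.909), Usp2 (0.883), Nab2 (0.882), Abl1 (0.882) and S1pr2 (0.878). Among all tested genes ordered by r with Ciart, Bhlhe41 ranked 21 in Ctrl and 31 in SCNx, and Bhlhe40 ranked 17 and 832. These are descriptions over libraries that share depth and scaling, with no test.

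Genes induced by other cues known to act on Bhlhe40 were also read. Of 11 tested genes of the hypoxia response (12 listed), 3 were rhythmic in Ctrl by edgeR, Slc2a1, Pdk1 and P4ha1, with amplitudes of 0.16, 0.15 and 0.42 and peaks at 7.71, 8.06 and 20.3 h. Of 8 genes induced by glucocorticoids, 4 were rhythmic in Ctrl by edgeR, and both counts stand beside 10.7% of all tested genes. The 4 glucocorticoid genes were Tsc22d3 (amplitude 0.75, peak 14.6 h), Fkbp5 (0.74, 12.6 h), Sgk1 (0.43, 11.8 h) and Klf9 (0.22, 9.10 h). The difference of the rhythm was called for 1 of the 11 and 2 of the 8, beside 2.12% of all tested genes, and 0 genes of either list were rhythmic in SCNx or differed in level by edgeR.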
